A study of Homo sapiens with 48 samples.

Results

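The siRNAs siRBM39-06 and siRBM39-08, which target the same mRNA, were set against each other directly, first in DMSO and then in 4OHT, and the genes and exons that differed the same way in both treatments were collected. The 16 libraries of these siRNAs were found by their titles among the 48 libraries of the series, with 4 libraries per siRNA and treatment. All cells were IMR90 ER:RAS, a human lung fibroblast line that carries HRAS G12V fused to the ligand-binding domain of the oestrogen receptor, so that 4OHT (4-hydroxytamoxifen) switches the oncogene on and DMSO is the vehicle. Cells of every group were kept in DMSO or 4OHT for 6 days, transfected, and then held for 2 days in 0.5% FBS. The fusion protein was thus present in the DMSO groups too, without its ligand. The other 32 libraries, siNT1 and siNT2 (non-targeting) and siSF3B1-13 and siSF3B1-16, serve here only as references. The 4 libraries titled 4OHT siNT2 carry a treatment label that reads siNT1 and were grouped by title. The study's methods call replicates of its cell culture work independent experiments, whereas the labels do not tie the 4 libraries of a group to separate cultures, and p-values measure the spread between these libraries.

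RBM39 is an RNA-binding protein related to the large U2AF subunit, U2AF2, and takes part in the recognition of the 3′ splice site. It is the protein that aryl sulfonamides such as indisulam send to degradation. An siRNA guides the silencing complex to its target by complementarity, and its short seed region can also repress other mRNAs with a partial match, which is why knockdowns are usually run with more than 1 siRNA. The sequences of siRBM39-06 and siRBM39-08 were not used here.

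The knockdown was strong with both siRNAs and slightly deeper with siRBM39-06. RBM39 (ENSG00000131051, chr20:34289269-34330234 of GRCh37, minus strand) stood in DMSO at 24.2, 26.9, 25.4 and 26.2 CPM (counts scaled to a common library size with TMM factors) with siRBM39-06. With siRBM39-08 it stood at 28, 29.1, 28.4 and 31 CPM. The 8 siNT libraries in DMSO lay between 158 and 185 CPM, so that 15.1% of the siNT mean was left with siRBM39-06 and 17.1% with siRBM39-08. In 4OHT the values were 15.2, 13.7, 16.5 and 14.3 CPM with siRBM39-06 against 18.2, 16.7, 17.2 and 18.4 CPM with siRBM39-08. Here 12.4% and 14.7% of the siNT mean of 120 CPM were left. The 4 and 4 libraries did not overlap in either treatment. The log2 difference, siRBM39-06 minus siRBM39-08, was -0.18 in DMSO (SE 0.05, adjusted p = 0.0029) and -0.24 in 4OHT (SE 0.05, adjusted p = 0.00039) in edgeR's quasi-likelihood test, or -0.22 without the 4OHT library described next (adjusted p = 0.0026, edgeR). The two-sided exact permutation test gave p = 0.0286 in each treatment, the smallest that 4 against 4 libraries allow. The small DMSO difference was lost when the trend of fold changes with GC content and transcript length was removed (0.0052, adjusted p = 0.96). No exon or intron of RBM39 passed the coverage filters.

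One library stood apart. Replicate 4 of 4OHT siRBM39-08 differed from the mean of the other 3 of its group with an SD of 0.77 on the log2 scale over the 9991 genes tested, and 1893 genes were 2-fold or more away. In the other 15 libraries this SD lay between 0.066 and 0.34, with 0 to 61 such genes. Its deviations correlated with the GC content of transcripts across 9896 genes (r = 0.67), as did those of DMSO siRBM39-06 replicate 1 (r = 0.66). The counts and main values in 4OHT are therefore also given without this library. The total counts of the 16 libraries lay between 34283723 and 48566557. Fibroblast markers were high in all 16 (9 of 10 genes above 10 CPM), whereas 3 of 7 epithelial markers (CDH1, CLDN3 and KRT14), 2 of 4 endothelial markers (KDR and CDH5) and 5 of 6 leukocyte markers (PTPRC, CD14, CD3E and LYZ among them) were below 1 CPM in each. The summed epithelial level ranged from 5.14 to 43.7 CPM, the highest in 4OHT siRBM39-08, the endothelial one from 32.6 to 53.4 CPM and the leukocyte one from 33.8 to 114 CPM. TEK averaged 33.3 to 45.6 CPM over the 4 groups and CD68 up to 92.3 CPM. In bulk RNA, fewer cells of a kind and less RNA per cell cannot be told apart.

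The genes that separated the siRNAs were many, and most differed by less than 2-fold. In DMSO, 4752 of 9991 genes (47.6%) differed between the siRNAs at an adjusted p under 0.05 in edgeR, 2238 higher with siRBM39-06 (22.4%) and 2514 higher with siRBM39-08 (25.2%). In 4OHT, 3154 genes (31.6%) differed, 1398 (14%) and 1756 (17.6%) in these directions. Only 116 genes in DMSO and 55 in 4OHT were called with at least a 2-fold difference. The same way in both treatments were 1332 genes (13.3%), of which 603 (6.04%) were higher with siRBM39-06 and 729 (7.3%) higher with siRBM39-08. A further 220 genes were called in both treatments with opposite signs. For 760 of the 1332 genes (7.61% of all tested), the 4 and 4 libraries did not overlap in either treatment, which held for 875 of all genes tested (8.76%). Of the 760, 370 were higher with siRBM39-06 and 390 higher with siRBM39-08.

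Replicate 4 of 4OHT siRBM39-08 decided the size of this shared set. Without it, 6501 genes (65.1%) differed in DMSO, 3574 (35.8%) in 4OHT and 2680 (26.8%) the same way in both, 1301 (13%) higher with siRBM39-06 and 1379 (13.8%) higher with siRBM39-08. The DMSO count moves because all groups share 1 estimate of spread. Of the 1332 genes, 1220 (91.6%) were also in the set of 2680, of which they made up 45.5%. The correlation of the log2 differences in DMSO with those in 4OHT, across 9991 genes that are not independent of each other, was 0.13 with the library and 0.68 without it. The log2 difference also ran with GC content, with r = 0.52 in DMSO, -0.28 in 4OHT and 0.29 in 4OHT without the library. With the trend on GC content and length removed, 1987 of 9896 genes (20.1%) differed the same way, 984 of the 1332 among them. With only the 16 siRBM39 libraries in the model, 1940 genes differed in DMSO, 1007 in 4OHT and 576 the same way. This model has fewer libraries and takes its spread from them alone, replicate 4 among them. The model of all 48 libraries shares its spread with the reference groups, so the counts depend on which libraries set the spread.

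**Figure D1:**
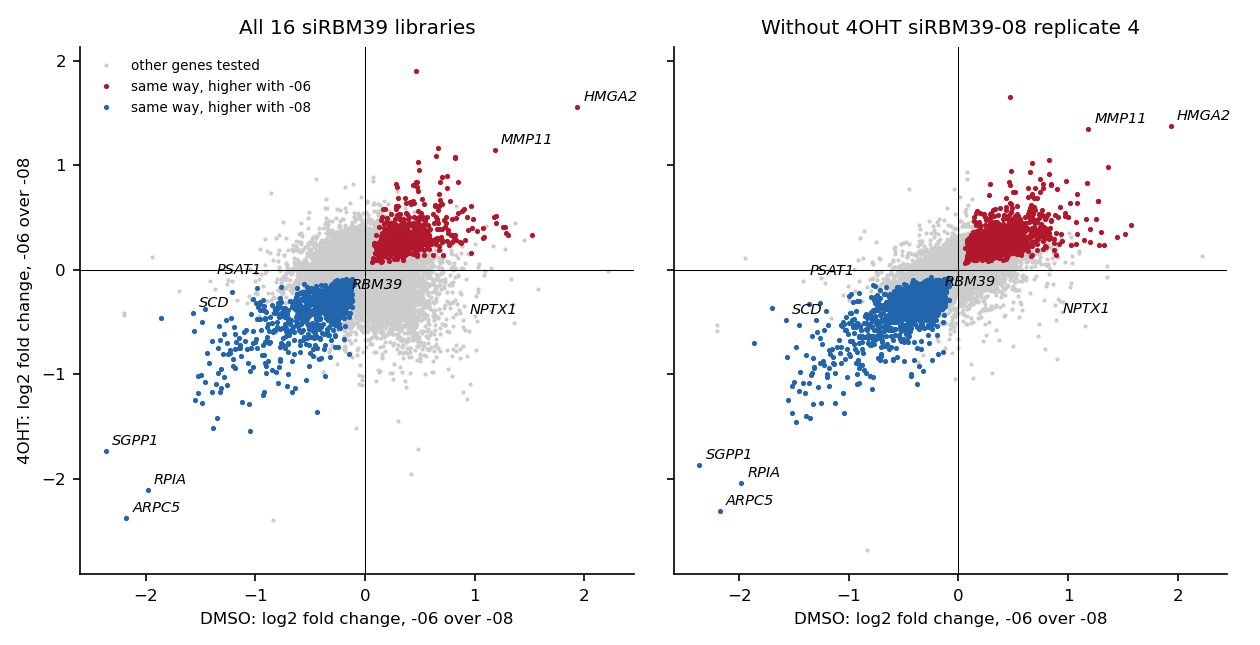
Log2 difference between siRBM39-06 and siRBM39-08 for each of the 9991 tested genes in DMSO (horizontal) and in 4OHT (vertical), with all libraries in the left panel and without replicate 4 of 4OHT siRBM39-08 in the right. Red and blue points are the genes that differed the same way in both treatments (603 higher with siRBM39-06 and 729 higher with siRBM39-08 on the left), and the cloud lies along the diagonal in the right panel (r = 0.68) but hardly in the left (r = 0.13).

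The difference between the siRNAs was larger than that between non-targeting siRNAs and of the order of that between the SF3B1 siRNAs. In the same model, siNT1 and siNT2 differed in 163 genes (1.63%) in DMSO and 35 (0.35%) in 4OHT, with 17 the same way in both. The siSF3B1-13 and siSF3B1-16 pair differed in 3731 (37.3%) and 2788 (27.9%), with 1789 the same way in both. Against the 8 siNT libraries of its treatment, which serve as shared controls for both siRNAs, siRBM39-06 changed 5960 genes (59.7%) in DMSO and 5851 (58.6%) in 4OHT. siRBM39-08 changed 4947 (49.5%) and 6247 (62.5%). To set the responses side by side without a shared library, siRBM39-06 was taken against siNT1 and siRBM39-08 against siNT2. Across the 9991 genes these log2 differences correlated with r = 0.49 in DMSO and 0.77 in 4OHT (0.80 without replicate 4).

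**Figure D2:**
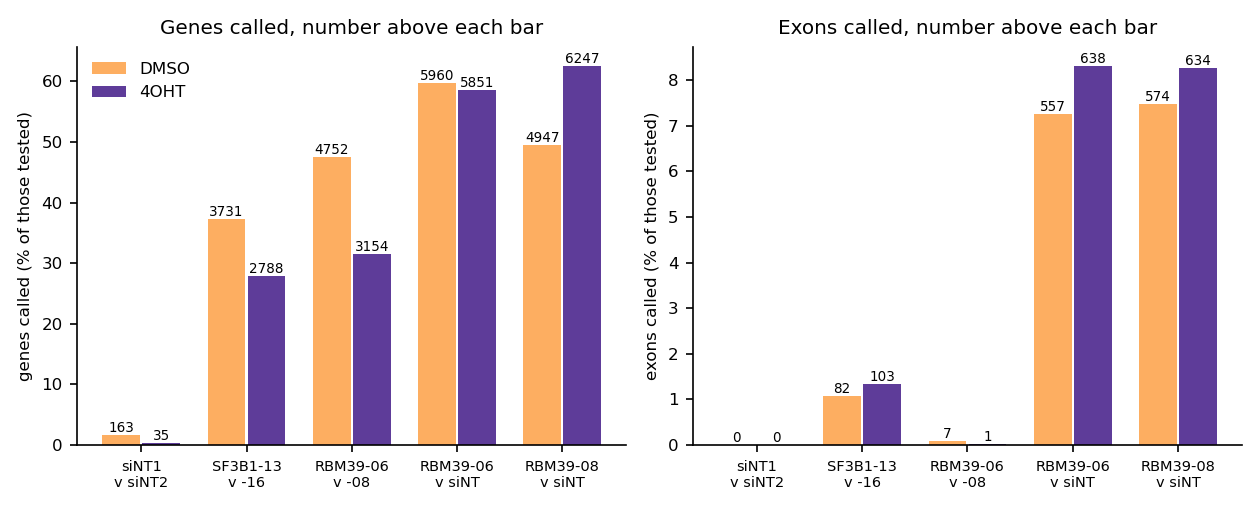
Percentage of tested genes and of tested exons called different (vertical axes) for siNT1 against siNT2, siSF3B1-13 against siSF3B1-16, siRBM39-06 against siRBM39-08, and each RBM39 siRNA against siNT, in DMSO and in 4OHT. The RBM39 pair differed in 47.6% and 31.6% of genes. It differed in 0.0912% and 0.013% of exons, where each siRNA against siNT changed 7.26% to 8.31% of exons. Exon calls also required at least 5 points and gene calls no minimum change, so shares of genes and of exons are not directly comparable.

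ARPC5, SGPP1 and RPIA, higher with siRBM39-08 in both treatments, lay far under siNT with siRBM39-06. ARPC5, a subunit of the ARP2/3 complex that nucleates branched actin (ENSG00000162704, chr1:183589981-183604918 of GRCh37, minus strand), stood in DMSO at 45.6, 41.3, 51.2 and 41.1 CPM with siRBM39-06 and at 191, 204, 212 and 203 CPM with siRBM39-08. The siNT libraries lay between 171 and 193 CPM. In 4OHT, ARPC5 stood at 51.9, 50.9, 56.3 and 57.8 CPM against 267, 270, 269 and 323 CPM. The siNT libraries lay there between 237 and 270 CPM, so that siRBM39-08 lay within or above the siNT range and siRBM39-06 far under it in every library. ARPC5 was 4.52-fold lower with siRBM39-06 in DMSO (log2 -2.18, SE 0.06, adjusted p = 2.29e-29, edgeR) and 5.21-fold lower in 4OHT (-2.38, SE 0.06, and -2.31 without replicate 4).

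SGPP1, the phosphatase that removes the phosphate from sphingosine-1-phosphate (chr14:64150934-64194783 of GRCh37, minus strand), showed the same kind of pattern. In DMSO it stood at 5.02, 6.72, 7.37 and 7.55 CPM with siRBM39-06 and at 31, 36.4, 33.5 and 36.9 CPM with siRBM39-08, where siNT lay between 31.8 and 36.9 CPM. In 4OHT the values were 4.83, 5.87, 6.22 and 6.06 CPM against 21.9, 19.3, 21.7 and 13.6 CPM, where siNT lay between 22 and 23.6 CPM. The groups did not overlap, and the lowest siRBM39-08 value was that of replicate 4. The log2 difference was -2.37 in DMSO and -1.74 in 4OHT (-1.87 without replicate 4).

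GNAI2, the inhibitory G protein subunit alpha-i2 (chr3:50263724-50296794 of GRCh37, plus strand), had 243, 204, 222 and 202 CPM with siRBM39-06 and 596, 566, 576 and 539 CPM with siRBM39-08 in DMSO. The 4OHT values were 199, 217, 191 and 195 CPM against 545, 520, 524 and 701 CPM. The siNT libraries, at 612 to 689 CPM in DMSO and 565 to 607 CPM in 4OHT, lay far above all 8 siRBM39-06 libraries. The log2 difference was -1.39 (SE 0.06) in DMSO and -1.51 (SE 0.06) in 4OHT, or -1.40 without replicate 4. RPIA, the ribose-5-phosphate isomerase of the pentose phosphate pathway, was lowly counted but similarly apart, with 2.05 to 2.61 CPM against 8.74 to 10.05 CPM in DMSO. Its siNT libraries had 6.4 to 8.3 CPM there, and in 4OHT RPIA stood at 1.64 to 2.46 CPM against 7.18 to 9.57 CPM (log2 -1.98 and -2.11, the latter -2.04 without replicate 4).

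POSTN, which encodes the matrix protein periostin (chr13:38136720-38172981 of GRCh37, minus strand), was lower than in siNT with siRBM39-06 in both treatments. In DMSO it had 248, 320, 286 and 337 CPM with siRBM39-06 and 893, 840, 769 and 828 CPM with siRBM39-08, where siNT lay between 1068 and 1238 CPM. With 4OHT, POSTN had 194, 182, 201 and 187 CPM against 565, 504, 508 and 276 CPM, where siNT lay between 447 and 488 CPM. The siRNAs did not overlap, although replicate 4 of siRBM39-08 lay well under its group (log2 -1.48 in DMSO and -1.28 in 4OHT, or -1.46 without it). The other 7 genes named by the same rule were HSDL1, EPB41L1 (a membrane cytoskeleton linker), RECK (an inhibitor of matrix metalloproteinases), ANKRD40, RPL7L1, CKS1B (a partner of cyclin-dependent kinases) and KIAA1467. Their log2 differences lay between -1.55 and -1.12 in DMSO and between -1.42 and -1.14 in 4OHT. Without replicate 4 those in 4OHT ran from -1.42 to -0.94, CKS1B being the weakest.

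In the opposite direction, HMGA2 led. This architectural chromatin protein (ENSG00000149948, chr12:66218240-66360071 of GRCh37, plus strand) had 239, 348, 297 and 326 CPM in DMSO with siRBM39-06 and 84.6, 81.0, 72.7 and 78.1 CPM with siRBM39-08. The siNT libraries lay between 206 and 282 CPM, so that siRBM39-08 lay far under siNT, and siRBM39-06 somewhat above it in 3 of 4 libraries (log2 0.31 against siNT, adjusted p = 0.0037, edgeR). In 4OHT it had 998, 975, 931 and 871 CPM against 390, 343, 358 and 194 CPM, with siNT between 861 and 1068 CPM. All 4 siRBM39-06 libraries lay within the siNT range and all 4 siRBM39-08 libraries far under it. HMGA2 was 3.82-fold higher with siRBM39-06 in DMSO (log2 1.93, SE 0.11, adjusted p = 7.72e-18, edgeR) and 2.94-fold higher in 4OHT (1.55, SE 0.11), or 1.38 without replicate 4.

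BTG2, an antiproliferative gene and p53 target, was raised by siRBM39-06 instead. In DMSO it had 96.5, 101, 95.4 and 97.9 CPM with siRBM39-06 and 56.3, 56.6, 54.9 and 53.3 CPM with siRBM39-08, where siNT lay between 47 and 52.6 CPM. With 4OHT these values were 69.1, 63.9, 62.3 and 63.2 CPM against 33.4, 29.4, 30.6 and 29.97 CPM. The siNT libraries lay there between 35.9 and 44.3 CPM, so the siRNAs were on opposite sides of siNT in 4OHT. The log2 differences were 0.82 (SE 0.04) and 1.07 (SE 0.04), the latter 1.05 without replicate 4. EMP1, an epithelial membrane protein, had 217 to 266 CPM against 147 to 160 CPM in DMSO and 270 to 283 CPM against 103 to 175 CPM in 4OHT. In 4OHT its siRBM39-06 libraries lay within the siNT range of 269 to 290 CPM. The other 9 genes of this direction were MMP11, SEMA7A, KIT (the receptor of stem cell factor), BCL7A, TMEM119, ZNF618, BDKRB2 (the bradykinin B2 receptor), WSB1 and SCD5, with log2 differences of 0.67 to 1.18 in DMSO and 0.67 to 1.17 in 4OHT (0.56 to 1.35 without replicate 4). KIT and TMEM119 had under 5 CPM in all 8 siRBM39 libraries in 4OHT, so their 4OHT values rest on fewer reads.

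**Figure D3:**
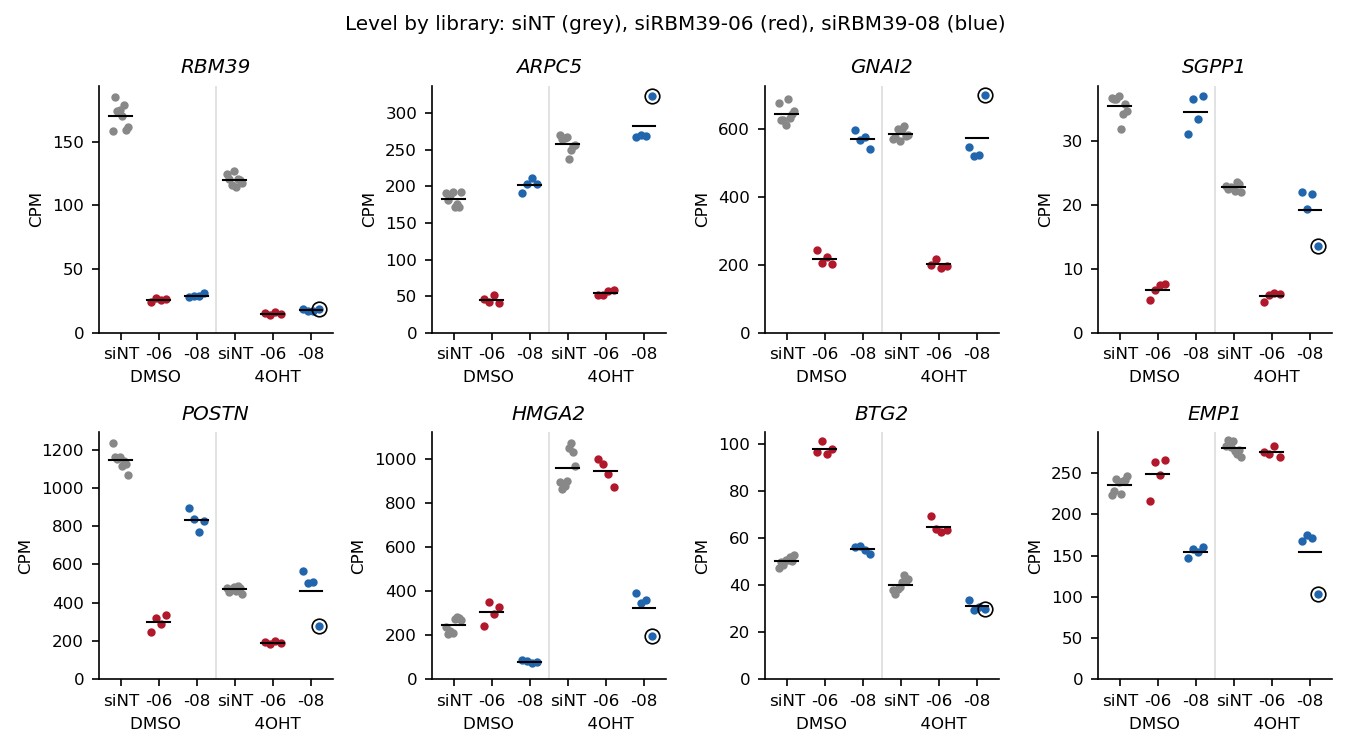
CPM (vertical) per library for RBM39, ARPC5, GNAI2, SGPP1, POSTN, HMGA2, BTG2 and EMP1 in DMSO and 4OHT, with 8 siNT libraries in grey, 4 siRBM39-06 in red and 4 siRBM39-08 in blue, a line at each group mean and a ring around replicate 4 of 4OHT siRBM39-08. RBM39 is low with both siRNAs, ARPC5 is low only in the red points (41.1 to 57.8 CPM) and HMGA2 only in the blue (72.7 to 84.6 CPM in DMSO).

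Which siRNA left the siNT range was counted over the named genes and the genes called the same way, but not over all genes tested. Of all genes, siRBM39-06 changed 59.7% against siNT in DMSO and 58.6% in 4OHT, and siRBM39-08 changed 49.5% and 62.5%. The counts below were not compared with all genes. Of the 12 genes higher with siRBM39-08, the siRBM39-08 mean alone lay within the range of the 8 siNT libraries for 4 genes in DMSO and 5 in 4OHT. The siRBM39-06 mean alone did so for 0 and 0. Of the 12 genes higher with siRBM39-06, the siRBM39-08 mean alone lay within it for 5 and 2, and the siRBM39-06 mean alone for 0 and 4. Over all 603 genes higher with siRBM39-06, these counts in DMSO were 171 for siRBM39-08 and 95 for siRBM39-06. Over the 729 higher with siRBM39-08 they were 221 and 115. In 4OHT they were 136 and 83 of the 603, and 167 and 129 of the 729. Both means lay outside the siNT range on the same side for 196 of the 603 and 207 of the 729 genes in DMSO, and for 264 and 294 in 4OHT. They lay outside it on opposite sides for 115 and 168 in DMSO and 105 and 129 in 4OHT.

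For some genes the difference between the siRNAs itself differed between treatments. The edgeR test of this difference called 4131 genes (41.3%), 2257 (22.6%) without replicate 4 of 4OHT siRBM39-08 and 2062 without replicate 1 of DMSO siRBM39-06. With only the 16 siRBM39 libraries in the model it called 244. The 3 with the smallest p were the same with and without replicate 4. NPTX1, a neuronal pentraxin, had 986 to 1135 CPM with siRBM39-06 against 545 to 603 CPM with siRBM39-08 in DMSO, and 66.7 to 72.0 CPM against 95.2 to 98.1 CPM in 4OHT. The sign thus turned, from 0.89 to -0.48 on the log2 scale. PSAT1, an enzyme of serine synthesis, had 91.9 to 101 CPM against 252 to 268 CPM in DMSO and 33 to 38 CPM against 36.7 to 39.8 CPM in 4OHT, where the libraries overlapped. SCD, the stearoyl-CoA desaturase, had 505 to 560 CPM against 1529 to 1574 CPM in DMSO and 348 to 375 CPM against 413 to 524 CPM in 4OHT. The 4OHT minus DMSO difference was -1.37 (SE 0.06) for NPTX1, 1.31 (SE 0.06) for PSAT1 and 1.16 (SE 0.06) for SCD, and without replicate 4 it was -1.37, 1.30 and 1.09.

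Several gene groups were then followed, each beside the 13.3% of all genes called the same way (26.8% without replicate 4) and beside median log2 differences over all genes of -0.01 in DMSO and -0.02 in 4OHT. For counts within 1 treatment, the shares of all genes were 22.4% higher with siRBM39-06 and 25.2% with siRBM39-08 in DMSO. In 4OHT they were 14% and 17.6%. Interferon-stimulated genes, which double-stranded RNA can induce, were mostly lower with siRBM39-06 in DMSO. Of 15 tested, 0 were higher with siRBM39-06 and 10 higher with siRBM39-08, with a median of -0.48. In 4OHT the counts were 1 and 5 with a median of -0.10, or 0 and 4 without replicate 4. IFITM1, SAMD9 and IRF9 were higher with siRBM39-08 in both treatments, IRF9 losing its 4OHT call without replicate 4, where 4 genes were higher with siRBM39-08 in both treatments. IFITM1, an antiviral membrane protein, averaged 16.8 against 23.9 CPM in DMSO and 4.8 against 7.1 CPM in 4OHT, beside siNT means of 15.8 and 5.5 CPM. For SAMD9 and IRF9 it was siRBM39-06 that lay further from siNT in DMSO. SAMD9 averaged 16.3 against 26.6 CPM there (siNT 25.1 CPM) and IRF9 32.8 against 45.8 CPM (siNT 42.4 CPM). In 4OHT they averaged 4.6 against 6.4 CPM (siNT 6.2 CPM) and 17.8 against 20.3 CPM (siNT 19.4 CPM). Of 11 genes of the small RNA silencing machinery, EIF2C2 (Argonaute 2, the slicer) was higher with siRBM39-06 and PRKRA higher with siRBM39-08 in both treatments, with the same counts without replicate 4.

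Among the genes of splicing tested, differences were under 2-fold, the largest being -0.63 for HNRNPUL2 in DMSO. U2AF1, which binds the AG of the 3′ splice site, was higher with siRBM39-06 by 0.28 in DMSO and 0.29 in 4OHT, and CHERP by 0.23 and 0.17. Without replicate 4 the 4OHT differences were 0.32 for U2AF1 and 0.28 for CHERP. They were the members called the same way among 10 tested genes of the U2AF family and 3′ splice site recognition, where 3 were without replicate 4. Of 12 SR proteins and their kinases, SRPK2 and SRSF8 were higher with siRBM39-08 in both treatments and 0 with siRBM39-06 (3 and 0 without replicate 4). SRPK2 differed by -0.48 in DMSO and -0.18 in 4OHT (-0.31 without replicate 4). Of 23 hnRNP proteins, HNRNPF, HNRNPA0 and HNRNPH2 were higher with siRBM39-06 in both treatments, whereas HNRNPUL2 (-0.63 and -0.53) and HNRNPH1 (-0.24 and -0.28) were higher with siRBM39-08. Without replicate 4, 6 were higher with siRBM39-06 and 2 with siRBM39-08, and the 4OHT values of HNRNPUL2 and HNRNPH1 were -0.44 and -0.28.

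Genes of endoplasmic reticulum (ER) stress and ATF4 went in both directions. Of 24 tested, 4 were higher with siRBM39-06 in both treatments, and these were the ER chaperone HSPA5, its cochaperone DNAJB9, HYOU1 and the disulphide isomerase PDIA4. HSPA5 averaged 1310 against 775 CPM in DMSO and 1270 against 992 CPM in 4OHT, beside siNT means of 1083 and 1280 CPM. The 6 higher with siRBM39-08 were ATF4 itself, the cystine transporter SLC7A11, MTHFD2, PHGDH, TRIB3 and HERPUD1. SLC7A11 averaged 29.6 against 71.2 CPM in DMSO and 20.6 against 28.7 CPM in 4OHT, all under the siNT means of 166 and 60.6 CPM. PHGDH and TRIB3 lost their 4OHT calls without replicate 4, where 6 genes were higher with siRBM39-06 in both treatments and 4 with siRBM39-08. All 6 genes of cholesterol synthesis and its control that were called the same way among 21 tested were higher with siRBM39-08, among them FDFT1, SQLE, HMGCS1, INSIG1 and SREBF2. FDFT1 lost its 4OHT call without replicate 4, where 7 genes were called the same way, all higher with siRBM39-08.

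Of 29 genes of collagens and matrix, 5 were higher with siRBM39-08 in both treatments (COL1A1, COL1A2, COL8A1, POSTN and THBS1) and 2 higher with siRBM39-06 (SPARC and LOXL2, the latter not in 4OHT without replicate 4, where the counts were 6 and 3). COL1A1, the main chain of type I collagen, averaged 14402 against 27272 CPM in DMSO and 3195 against 7179 CPM in 4OHT, beside siNT means of 26178 and 6153 CPM. The summed level of 10 fibroblast markers lay between 37184 and 39466 CPM with siRBM39-06 and between 52258 and 55771 CPM with siRBM39-08 in DMSO, and between 11608 and 12062 CPM against 15811 and 16543 CPM in 4OHT. COL1A1 and COL1A2 are in this sum and make up most of its difference. The median over the 10 markers was -0.06 in DMSO and -0.18 in 4OHT (-0.20 without replicate 4), and in DMSO VIM, DCN, THY1, PDGFRB and FAP differed by -0.13 to 0.11. LUM differed by -0.62 in DMSO and -0.23 in 4OHT (-0.36 without replicate 4), and COL3A1 by -0.04 and -0.35 (-0.42). S100A4 turned from 0.95 in DMSO to -1.09 in 4OHT (-0.30 without replicate 4).

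Genes of the senescent secretome, the factors that senescent cells release, were more often higher with siRBM39-08 in 4OHT. Of 27 tested, 5 were higher with siRBM39-06 and 14 with siRBM39-08 there (6 and 16 without replicate 4). In DMSO the counts were 8 and 5 (8 and 7 without replicate 4). Over all genes these shares were 22.4% and 25.2% in DMSO and 14% and 17.6% in 4OHT. The 8 included IL1B, which was barely counted in DMSO (0.98 against 0.59 CPM). Other members were barely counted there too, such as CXCL1 (0.74 against 0.65 CPM), CXCL5 (0.43 against 0.57 CPM) and CSF2 (0.011 against 0.0058 CPM). The DMSO counts therefore say little about such genes, and a turn between treatments cannot be read from them. The same way in both were MMP1, MMP10, TNFRSF11B and IGFBP7, higher with siRBM39-06, and IGFBP3, STC1 and VEGFA, higher with siRBM39-08. IGFBP7 lost its 4OHT call without replicate 4, where 4 were higher with siRBM39-06 and 5 with siRBM39-08. IGFBP3, a carrier of insulin-like growth factors, averaged 8.6 against 14.9 CPM in DMSO and 14.1 against 29.9 CPM in 4OHT, beside siNT means of 15 and 48.1 CPM.

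Of 23 p53 target genes, BTG2, AEN and the death receptor TNFRSF10B were higher with siRBM39-06 in both treatments and 0 higher with siRBM39-08. Replicate 4 decided this count, since without it 10 were higher with siRBM39-06 in both treatments and 1, PMAIP1, with siRBM39-08. These were 47.8% of the list, against 26.8% of all genes. Whether this share runs with GC content, as the log2 differences did, was not tested. The 10 also held BAX, BBC3, FDXR, PHLDA3, DDB2, GDF15 and TP53I3. In 4OHT alone 10 of the 23 were higher with siRBM39-06 and 0 with siRBM39-08 (14 and 1 without replicate 4), with a median of 0.12 (0.24 without it). In DMSO 9 were higher with siRBM39-06 and 3 with siRBM39-08 (12 and 4 without replicate 4). The targets CDKN1A and MDM2 differed by -0.01 each in DMSO and by 0.29 and 0.12 in 4OHT. Among all genes with all libraries, 14% and 17.6% were called in these directions in 4OHT, and 22.4% and 25.2% in DMSO. Of 26 BCL2 family members and caspases, BMF, CASP2 and BCL2L2 were higher with siRBM39-06 in both treatments and BIRC5 and CASP9 with siRBM39-08. BIRC5, the mitotic survival protein survivin, differed by -1.05 in DMSO and -0.97 in 4OHT (-0.50 without replicate 4). Without that library BCL2L2 lost its 4OHT call, but 6 were higher with siRBM39-06 in both treatments and 6 with siRBM39-08 (46.2% of the list in all). BAX, BBC3 and PMAIP1 are in the p53 list too. Among the further ones were BAX, BBC3, BAK1 and BCL2L1 with siRBM39-06, and PMAIP1, BIRC2 and MCL1 with siRBM39-08.

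Of 21 genes of cell division, 3 were higher with siRBM39-06 and 12 with siRBM39-08 in DMSO, with a median of -0.39, and 3 and 4 in 4OHT (2 and 4 without replicate 4). The matching shares of all genes were 22.4% and 25.2% in DMSO and 14% and 17.6% in 4OHT. PCNA, the sliding clamp of DNA polymerases, was higher with siRBM39-06 in both treatments. RRM2, a ribonucleotide reductase subunit, and CCNB1 were higher with siRBM39-08, CCNB1 losing its 4OHT call without replicate 4. Of 27 genes of the RAS pathway, 0 were higher with siRBM39-06 in both treatments, and EGR1, ETV5 and NRAS were higher with siRBM39-08 (1 and 5 without replicate 4). NRAS averaged 87.0 against 137 CPM in DMSO and 60.4 against 88.4 CPM in 4OHT, beside siNT means of 125 and 84.4 CPM.

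For exon inclusion, 0 of 7673 exons differed the same way in both treatments in the model of all libraries (1, in TFCP2, with only the 16 siRBM39 libraries in the model). PSI, the percentage of transcripts that include an exon, was called different at an adjusted p under 0.05 in limma together with at least 5 points. In DMSO 7 exons (0.0912%) met this and in 4OHT 1 exon (0.013%), and without replicate 4 of 4OHT siRBM39-08 the numbers were 8 (0.104%) and 1 (0.013%), with 0 shared. At an unadjusted p under 0.05, 393 exons (5.12%) passed in DMSO and 412 (5.37%) in 4OHT, and 28 did so the same way in both. On the logit scale without squeezing, which kept the 472 exons with a PSI of 1 to 99% in every library, 9 were called in DMSO. In 4OHT 0 were called on that scale, and 10.2% and 9.32% of the 472 had an unadjusted p under 0.05. Changes of PSI against siNT were far more frequent, with 557 exons (7.26%) for siRBM39-06 and 574 (7.48%) for siRBM39-08 in DMSO, and 638 (8.31%) and 634 (8.26%) in 4OHT. The siSF3B1 pair differed in 82 exons (1.07%) in DMSO and 103 (1.34%) in 4OHT, with 8 the same way in both, and the siNT pair in 0 and 0. The median SE of the difference between the RBM39 siRNAs was 0.81 points in DMSO and 0.84 in 4OHT. In 10% of exons the SE was above 2.95 and 3.16 points, and differences of a few points were not detectable in those. Larger differences were also missed at smaller SEs. In 4OHT, exons of MPDU1 (10.8 points, SE 2.38) and ZNF207 (8.11 points, SE 2.13) were not called, although their libraries did not overlap. Their adjusted p was 0.897 and 0.94 in limma. In DMSO, an exon of IDH3G with a difference of 10.6 points (SE 2.66) was called. The lack of shared calls therefore does not show that inclusion was equal.

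The exons that answered most strongly to both siRNAs are printed first because they show where both siRNAs moved inclusion far from siNT. Exon bases are in capitals and the 20 bases of intron on each side in lower case, 5′ to 3′ on the transcribed strand, from the GRCh37 genome at exons of the GENCODE annotation that matched by gene, exon length and flanking intron length.
BECN1, 61-base exon, chr17:40965966-40966026, minus strand, coding: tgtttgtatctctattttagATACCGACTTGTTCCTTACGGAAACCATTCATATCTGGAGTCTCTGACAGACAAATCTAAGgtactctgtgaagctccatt
ZNF207, 48-base exon, chr17:30688487-30688534, plus strand, coding: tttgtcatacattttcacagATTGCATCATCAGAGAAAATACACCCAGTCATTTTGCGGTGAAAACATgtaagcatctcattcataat
TBC1D7, 81-base exon, chr6:13325326-13325406, minus strand, coding: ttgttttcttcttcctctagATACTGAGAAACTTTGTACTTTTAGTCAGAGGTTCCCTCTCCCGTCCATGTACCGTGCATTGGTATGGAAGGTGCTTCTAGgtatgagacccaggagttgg

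The 61-base exon of BECN1, which encodes the autophagy protein beclin 1, was skipped alike. Its PSI in DMSO was 18.8, 11.4, 26.2 and 21.2% with siRBM39-06 and 17.3, 13.8, 25.3 and 17.3% with siRBM39-08, where siNT lay between 76.1 and 92.7%. In 4OHT it was 13.0, 9.73, 10.6 and 12.8% against 8.37, 8.90, 8.53 and 12.5%, where siNT lay between 57.1 and 74.0%. The siRNAs overlapped in both treatments and differed by 1.00 points (SE 3.93) and 1.96 points (SE 1.28). The 81-base exon of TBC1D7, a subunit of the TSC complex that restrains mTORC1, fell from 74.1 to 87.0% in siNT to 29.4 to 45.2% with siRBM39-06 and 28.8 to 44.3% with siRBM39-08 in DMSO. The siRNAs differed there by 1.06 points (SE 5.12), and in 4OHT by 0.0075 points (SE 6.60).

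The 48-base exon of ZNF207, the mitotic protein BuGZ, was low with both siRNAs and lowest on average with siRBM39-08. In DMSO it had 25.3, 19.1, 31.3 and 25.3% with siRBM39-06 and 16.9, 21.7, 16.2 and 17.8% with siRBM39-08, and in 4OHT 31.4, 29, 25.9 and 26.1% against 18.9, 22, 23.3 and 15.8%. The 4OHT groups did not overlap. The differences of 7.09 points (SE 2.78) and 8.11 points (SE 2.13) did not pass in limma (adjusted p = 1 and 0.94). In siNT this exon lay between 62.5 and 79.7% in DMSO and between 79.0 and 93.6% in 4OHT. The other 5 exons with the largest shared response, a 143-base exon of BECN1, 3 exons of MICAL1 (an actin-oxidising enzyme) and a 63-base exon of PAPOLA (the poly(A) polymerase), differed between the siRNAs by -0.66 to 19.4 points in DMSO and 1.42 to 18.9 points in 4OHT. None of these differences passed in limma in either treatment (adjusted p = 0.65 to 1), although the libraries did not overlap for the 191-base MICAL1 exon in DMSO and the 42-base one in 4OHT.

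In all, 335 exons were called against siNT with both siRNAs in both treatments in a single direction, 305 lower and 30 higher than siNT. These comparisons share the siNT libraries. The 335 exons were chosen after the values had been seen, for a difference of at least 5 points from siNT with both siRNAs. That choice favours a large difference from siNT and a small one between the siRNAs, so their medians do not measure agreement. The median size of the difference from siNT was 14.9 points over these exons. The siRNAs differed from each other by a median of 2.48 points in DMSO and 2.34 in 4OHT. The difference was at least 5 points for 75 exons in DMSO and 84 in 4OHT. One of the 335 was called between the siRNAs, the SRRT exon in DMSO, and 0 in 4OHT. Without a shared library (siRBM39-06 against siNT1, siRBM39-08 against siNT2), the PSI differences of the 7673 exons correlated with r = 0.84 in DMSO and 0.87 in 4OHT (0.87 without replicate 4). The points of a treatment share the same 16 libraries and their depth.

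**Figure D4:**
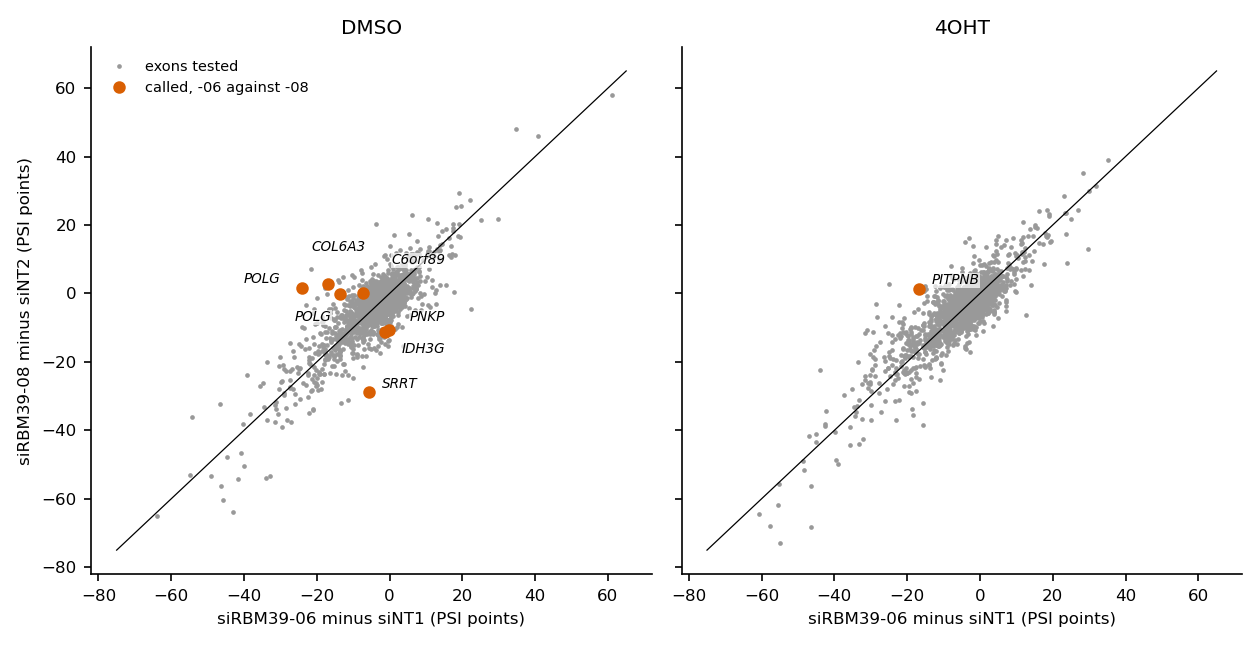
PSI difference of each of the 7673 exons for siRBM39-06 minus siNT1 (horizontal, points) against siRBM39-08 minus siNT2 (vertical, points), in DMSO and in 4OHT, with the line of equal response. The exons lie along this line (r = 0.84 and 0.87), and the 7 exons in DMSO and 1 in 4OHT called between the siRNAs are orange.

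The exons that did differ were called in 1 treatment each. The sequences of 3 of them are shown because inclusion moved most there or in the direction of skipping with 1 siRNA, in the same layout as above.
SRRT, 147-base exon, chr7:100479280-100479426, plus strand, coding: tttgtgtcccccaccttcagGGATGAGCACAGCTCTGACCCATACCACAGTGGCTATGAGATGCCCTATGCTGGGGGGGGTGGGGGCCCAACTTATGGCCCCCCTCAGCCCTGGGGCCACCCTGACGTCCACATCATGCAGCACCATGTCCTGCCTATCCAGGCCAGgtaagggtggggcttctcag
POLG, 136-base exon, chr15:89864356-89864491, minus strand, coding: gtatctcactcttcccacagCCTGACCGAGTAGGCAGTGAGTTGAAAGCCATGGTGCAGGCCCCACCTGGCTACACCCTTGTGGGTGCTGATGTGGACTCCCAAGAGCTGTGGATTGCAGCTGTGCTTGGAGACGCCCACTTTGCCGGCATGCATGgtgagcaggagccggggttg
IDH3G, 103-base exon, chrX:153052506-153052608, minus strand, coding: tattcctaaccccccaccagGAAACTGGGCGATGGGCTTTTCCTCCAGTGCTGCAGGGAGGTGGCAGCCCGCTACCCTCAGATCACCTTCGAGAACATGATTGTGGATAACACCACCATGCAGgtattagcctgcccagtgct

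SRRT encodes ARS2, which links the cap-binding complex to RNA processing. In DMSO the exon had 94.2, 100, 88.5 and 91.0% with siRBM39-06 and 74.9, 71.7, 86.2 and 48.4% with siRBM39-08, with siNT between 96.0 and 100%. In 4OHT the exon had 57.4, 73.0, 62.5 and 68.6% against 69.2, 63.1, 62.5 and 58.6%, far under siNT with both siRNAs. The difference was thus seen in DMSO (23.1 points, SE 8.32, adjusted p = 0.047, limma) and not in 4OHT (2.01 points, SE 4.06, or 0.42 points without replicate 4). The difference between treatments did not pass its own test (adjusted p = 0.68).

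POLG, the catalytic subunit of the mitochondrial DNA polymerase, was changed in the other direction in 2 neighbouring exons. The 136-base exon had 78.2, 62.8, 72.1 and 87.0% with siRBM39-06 in DMSO and 100, 100, 90.5 and 100% with siRBM39-08, within the siNT range of 87.5 to 100%. It rested on 26 to 49 reads per library. The difference was -22.6 points (SE 5.62, adjusted p = 0.00073, limma), and -13.2 points in the 247-base exon. In 4OHT the differences were -4.44 and -1.65 points, with overlap (-4.64 and -1.86 without replicate 4).

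COL6A3, an alpha chain of type VI collagen, had the best covered of these exons, with 731 to 1522 reads per library in DMSO. Its 600-base exon (chr2:238287279-238287878 of GRCh37, minus strand, coding) had 67.5, 71.0, 67.4 and 68.6% with siRBM39-06 in DMSO and 84.5, 84.7, 84.7 and 85.0% with siRBM39-08. The siNT libraries lay there between 80.4 and 86.8%, so siRBM39-06 alone was away from siNT in DMSO. In 4OHT the values were 67.7, 65, 63.4 and 61.9% against 78.4, 72.9, 76.9 and 59.5%, where replicate 4 was the low value of siRBM39-08. With siNT between 81.7 and 88.8% in 4OHT, every library of both siRNAs lay under siNT there. The difference between the siRNAs was -16.1 points (SE 0.85, adjusted p = 0.0045, limma) in DMSO and -7.45 points in 4OHT. Without replicate 4 it was -11.6 points in 4OHT (adjusted p = 0.46, limma), with the same sign and no overlap among the remaining libraries.

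IDH3G, a subunit of mitochondrial isocitrate dehydrogenase, had 100, 100, 94.6 and 100% against 86.1, 85.2, 94.9 and 85.9% in DMSO. In 4OHT it had 71.6 to 86.7% and 56.8 to 85.7%, both under siNT (96.6 to 100%). C6orf89 had a 124-base exon at 85.7 to 100% against 100% in all 4 libraries in DMSO. The adjusted p-values of these exons in limma were 0.0045 and 0.00051. Their 4OHT differences were 2.46 and 0 points, and 4.86 and 0 points without replicate 4. Of the 7 exons called in DMSO, that of SRRT lost its call when any of 11 of the 16 libraries was left out, and the 247-base exon of POLG for 4 (DMSO siRBM39-06 replicate 2 and DMSO siRBM39-08 replicates 1, 2 and 4). Those of IDH3G, COL6A3 and C6orf89 and the 136-base exon of POLG lost it in none of these, but with only the 16 siRBM39 libraries in the model all 7 did.

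The call in 4OHT was an 86-base exon of PITPNB, a phosphatidylinositol transfer protein (chr22:28250842-28250927 of GRCh37, minus strand, partly coding). It had 90, 85.3, 70 and 87.3% with siRBM39-06 and 100% in all 4 siRBM39-08 libraries, with siNT between 94.3 and 100%. The difference was -16.8 points (SE 4.49, adjusted p = 2.6e-05, limma), and without replicate 4 the adjusted p was 0.00025. In DMSO both siRNAs lay under siNT, at 54.5 to 89.8% and 56.6 to 76.7%, and differed by 6.67 points with overlap. PITPNB was the exon whose siRNA difference differed between treatments (-23.5 points, adjusted p = 0.0024, limma). It rested on 24 to 89 reads per library.

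**Figure D5:**
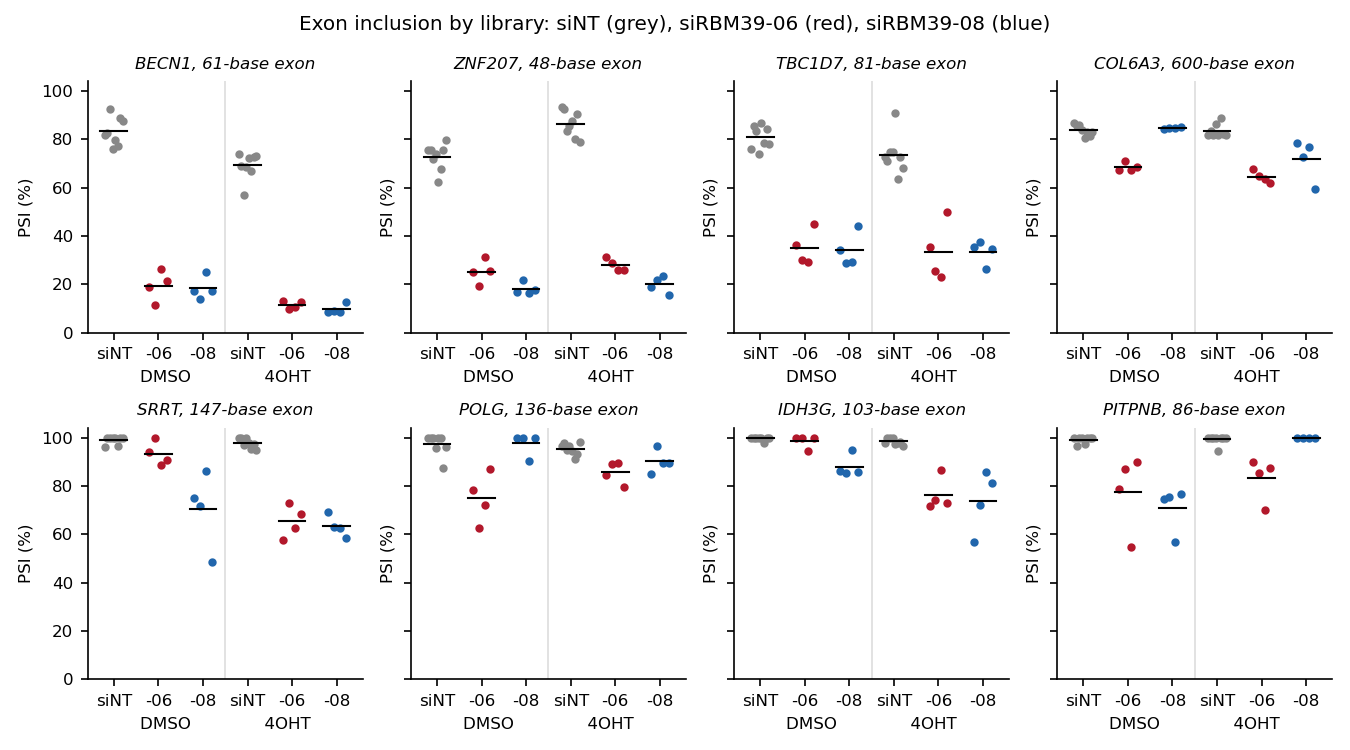
PSI in percent (vertical) per library for exons of BECN1, ZNF207, TBC1D7, COL6A3, SRRT, POLG, IDH3G and PITPNB in DMSO and 4OHT, with siNT in grey, siRBM39-06 in red, siRBM39-08 in blue and a line at each mean. The red and blue points of BECN1 and TBC1D7 overlap far under siNT, while COL6A3 in DMSO is lower in the red points (67.4 to 71.0%) than in the blue (84.5 to 85.0%).

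Of the 28 exons that moved the same way at an unadjusted p under 0.05, 7 moved by at least 5 points in both treatments, in PLXND1, TFCP2, MPDU1, ATAD3B, COL6A3, ARHGEF40 and LAMP2. They were named after their values were seen. In MPDU1, needed for the use of dolichol-linked mannose, a 119-base exon had 63.1, 62.6, 63.0 and 53.5% with siRBM39-06 in DMSO and 35.7, 41.1, 40 and 37.4% with siRBM39-08, under siNT at 90.1 to 97.2%. In 4OHT it had 54.5, 58.3, 49.2 and 49.6% against 41.9, 44.2, 43 and 39.5%. The groups did not overlap in either treatment, and the limma adjusted p was 0.088 and 0.90. In the transcription factor gene TFCP2, a 153-base exon was at 100% in all 8 siRBM39-08 libraries and at 89.3 to 95.7% in the 8 siRBM39-06 libraries, with siNT between 85.8 and 100%. Its differences of -7.72 points in DMSO and -6.17 in 4OHT had adjusted p = 0.41 and 0.51 in limma (0.65 in 4OHT without replicate 4, where MPDU1 differed by 9.89 points). With only the 16 siRBM39 libraries in the model it was called in both treatments.

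Intron retention gave no call between the siRNAs in the model of all libraries. The SE of intron differences was not computed, so the lack of calls does not show that retention was equal. Of 5248 introns tested with limma, 0 were called in DMSO (0%) and 0 in 4OHT (0%), with or without replicate 4, while 299 and 275 had an unadjusted p under 0.05 and 12 of these moved the same way in both. On the logit scale without squeezing, 1 intron was called in each treatment. The introns with an unadjusted p under 0.05 were 5.7% in DMSO and 5.24% in 4OHT, and 8.42% in each on the logit of the reads. Against siNT, siRBM39-06 changed 86 introns (1.64%) in each treatment, and siRBM39-08 changed 119 (2.27%) in DMSO and 114 (2.17%) in 4OHT. The mean PSI over the 7673 exons was 82.39 ± 0.01% (SD, n = 4) with siRBM39-06 and 82.39 ± 0.03% with siRBM39-08 in DMSO (two-sided exact permutation p = 0.94). In 4OHT it was 81.99 ± 0.03% against 82.04 ± 0.08% (exact permutation p = 0.31, and 0.057 without replicate 4, the smallest that 4 against 3 libraries allow). All 16 libraries were below the siNT libraries, which lay between 83.43 and 83.72%. Mean intron PSI was 1.93 ± 0.11% against 2.09 ± 0.13% in DMSO (exact permutation p = 0.17) and 1.79 ± 0.12% against 2.00 ± 0.09% in 4OHT (exact permutation p = 0.057, and 0.11 without replicate 4), beside 0.904 to 1.80% in the 16 siNT libraries.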

How the data were processed

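RNA from 48 libraries (12 groups of 4, treatment by siRNA) was made into mRNA libraries and sequenced. The authors aligned reads with vast-tools against VAST-DB (named hg19) and deposited raw counts per gene, and for each exon and intron a PSI in percent with a quality string (coverage score, reads and balance p-value). The authors' deposited normalised CPM table, a signal on a linear scale, was used in 1 alternative. Event coordinates in the deposited table did not match GRCh37 and were not used; printed coordinates and sequences are from GRCh37 at GENCODE v44lift37 exons.

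Genes with at least 10000 counts in total (9991 of 19847 listed, 338 of which had no counts) were fitted with edgeR 4.0.16 (R 4.3.3), TMM scaling and quasi-likelihood tests, in 1 model of all 48 libraries, with Benjamini-Hochberg adjustment at 0.05. Depth was 31467221 to 52734636 counts. PSI was squeezed to 0.01 + 0.98 × PSI/100, put on the logit scale and tested with limma 3.58.1, for events with coverage of at least VLOW in all libraries, PSI values spanning 5 points or more and, among introns, both junctions balanced (p 0.05 or higher in every library) (7673 exons and 5248 introns). "Same way" means called in both treatments with the same sign. Positive differences are higher with siRBM39-06. Both scripts were tested on simulated data. No library pair was alike within counting noise.

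The named genes were RBM39, the 12 genes per direction with the largest smaller change of both treatments, among those called the same way with no overlap of libraries, the 3 with the smallest p for a difference between treatments, and list members called the same way. No exon met that rule; those named are exons that were called, the 8 with the largest response shared by all comparisons with siNT and the 7 at an unadjusted p. The members, gene lists and rules were chosen with earlier results of these data known. Replicate numbers did not pair the libraries. DESeq2 1.42.0, limma-voom and other filters were alternatives. betAS was not run. Some items, exons and genes, are not reported here. The study's methods give 3 replicates and the labels 4.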

Additional observations from a re-analysis of the deposited data

Results flagged for a closer look

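Each of 156 groups of 4 libraries was tested for 1 value far from the other 3, which chance alone gives in about 1 group in 20. The share given is the gap to the nearest library over the group's range, where it was above Dixon's 95% critical value. In 4OHT siRBM39-08 this was so for EMP1 (0.896), WSB1 (0.934), ARPC5 (0.952), GNAI2 (0.863) and NPTX1 (0.898), and in DMSO siRBM39-06 for ANKRD40 (0.838). Replicate 4 was the far library for EMP1, WSB1, ARPC5 and GNAI2, and replicate 1 for NPTX1 and ANKRD40. Among exons it was so in DMSO siRBM39-06 for IDH3G (1), in DMSO siRBM39-08 for IDH3G (0.905), both POLG exons (1 and 1) and PITPNB (0.887), and in 4OHT siRBM39-06 for IDH3G (0.830). The SD of log2 differences from the other libraries did so in 4OHT siRBM39-06 (0.962), from replicate 2 at 0.12 against 0.098 to 0.099.

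The difference between siRNAs differed between treatments by test for 4131 genes (edgeR) and 1 exon (limma), PITPNB by -23.5 points. In the named genes the 4OHT minus DMSO difference on the log2 scale was -0.38 for HMGA2, 0.24 for BTG2, 0.50 for WSB1, -0.20 for ARPC5, 0.63 for SGPP1, 0.30 for EPB41L1, 0.23 for RPL7L1, -1.37 for NPTX1, 1.31 for PSAT1 and 1.16 for SCD. Without replicate 4 of 4OHT siRBM39-08, that of ARPC5 was -0.13 (adjusted p = 0.15, edgeR) and that of HMGA2 -0.56.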

How the results depend on the processing

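With only the 16 siRBM39 libraries in the model, 1940 genes differed in DMSO, 1007 in 4OHT, 576 the same way and 244 between treatments, and the RBM39 difference in DMSO, -0.17, did not pass. Requiring 1.5-fold left 691, 411, 126 and 1191. With the GC and length trend removed (chosen after seeing the data), the RBM39 difference in DMSO turned to 0.0052, and to 0.0034 without replicate 4 of 4OHT siRBM39-08, where 2765 genes differed the same way and 2372 between treatments. limma-voom, DESeq2, DESeq2 size factors and both count filters gave 1319 to 1460 genes the same way. At a coverage of at least LOW, 3 exons were called in DMSO, 0 in 4OHT and 0 between treatments. The model of 16 libraries called 2, 2 and 0, and the TFCP2 exon (1 exon) the same way. Filters over those libraries gave 2 in 4OHT. With plain logit 9 of 472 exons were called in DMSO, 0 in 4OHT and 0 between treatments. On reads, 0 were called between treatments. Introns called were 1 in DMSO with plain logit or reads, and 1 in 4OHT with plain logit, no range filter or the model of 16 libraries.

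Leaving out 1 library at a time gave 3434 to 6501 genes in DMSO, 2435 to 4557 in 4OHT, 1190 to 2680 the same way and 2062 to 5837 between treatments, the 2680 being without replicate 4 of 4OHT siRBM39-08. RBM39 ranged from -0.20 to -0.15 and -0.29 to -0.20. Exons ranged from 4 (without DMSO siRBM39-08 replicate 1 or 4) to 11 (without its replicate 3) in DMSO, 1 to 5 in 4OHT (5 without 4OHT siRBM39-06 replicate 3), 0 to 0 the same way and 1 to 3 between treatments (3 without DMSO siRBM39-06 replicate 1 or 3), and introns from 0 to 2 in DMSO and 0 to 1 in 4OHT. The mean PSI difference ranged from -0.011 to 0.016 and -0.087 to -0.023 over exons, and -0.19 to -0.090 and -0.25 to -0.15 over introns.

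The replicate block gave 4697, 3069, 1330 and 3953 genes, and exact p = 0.88, 0.50, 0.25 and 0.25 for the mean PSI (smallest possible 0.125). Same-numbered libraries correlated with -0.31, 0.05, 0.44 and 0.57 in DMSO and 0.54, -0.40, 0.37 and 0.31 in 4OHT, so the numbers were not taken as pairs. Of the checks on single named genes and exons, 1708 kept side and direction, 35 lost the call (all on exons, those of SRRT and POLG among them) and 5, all PSAT1 in 4OHT, gained it. Under VLOW coverage, exons with few reads limit what can be seen.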
